A study of Mus musculus with 6 samples.

Results

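The genes described here are 9 markers of adventitial and universal fibroblasts, *Pi16*, *Dpp4*, *Cd34*, *Ly6a*, *Ly6c1*, *Dpt*, *Clec3b*, *Tcf21* and *Thy1*. They were taken by symbol from the 24421 rows of the matrix, and all 9 were found. Bulk RNA sequencing had been performed on living GFP+ cells sorted from dissected aortic root and ascending aorta, taken from 129S6/SvEv mice that were 8 weeks old. All mice carried the conditional *CAG-Sun1/sfGFP* tracer, with either the *Mef2cSHF* Cre allele for the secondary heart field (SHF, 3 libraries) or *Wnt1-Cre2* for the cardiac neural crest (CNC, 3 libraries). Every library of both lineages is labelled WT (wild type). Each Cre labels descendants of a progenitor pool whatever cell type they become, so the GFP gate keeps any traced cell of the dissected segment. Whether a library holds cells of 1 mouse or of pooled mice is not given in the sources used here, so p-values measure the spread between these libraries.

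The adventitia is the outer coat of an artery and its main resident cell is the fibroblast, which makes collagen and proteoglycans. Across organs, fibroblasts that express *Pi16* and *Dpt* have been described as a universal, progenitor-like state found around vessels, and *Cd34*, *Dpp4*, *Clec3b* and the surface antigen Sca-1, the product of *Ly6a*, are used to sort or name it. *Cd34*, *Ly6a* and *Ly6c1* are also expressed by endothelial cells, and *Thy1* by T cells and neurons. *Tcf21* encodes a basic helix-loop-helix transcription factor that fibroblasts of the epicardial lineage need. Such factors bind DNA sites of the E-box type.

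All 9 markers were above 0 TPM in all 6 libraries, and none was exclusive to a lineage, taken here as over 5 TPM throughout a lineage, the threshold of the study's methods, and 0 throughout the other. *Tcf21* was higher in every SHF library than in any CNC library, while *Pi16*, *Ly6a*, *Ly6c1* and *Clec3b* were higher in every CNC library than in any SHF library. *Cd34*, *Dpt*, *Dpp4* and *Thy1* overlapped between lineages. None of these differences passed the test across all genes.

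Values are TPM, a transcript level per length that is scaled to the same total in every library. The sequencing depth is unknown from TPM, and no counting interval can be given. In these bulk samples, fewer cells of a type and less RNA per cell cannot be told apart. The number of genes above 0 TPM ran from 9255 to 11858 per library. The X-inactivation transcript *Xist* was measured only in SHF replicate 2 (51.95 TPM) and SHF replicate 3 (38.76 TPM), while the Y-linked *Ddx3y* ran from 42.24 to 61.27 TPM in the other 4 libraries. Sex thus differed within SHF and moved with lineage in part. In the 4 libraries listed at 0 for *Xist*, the log2 differences of *Pi16*, *Ly6a*, *Ly6c1* and *Clec3b* were -0.89, -0.9, -1.01 and -1.49, with a single SHF library. In the same 4 libraries they were -2.58 for *Dpp4*, -0.73 for *Thy1*, -0.56 for *Dpt* and -0.37 for *Cd34*.

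Some sequences bear on how the values are read. *Ly6c1*, on chromosome 15 of GRCm38 from 75044018 to 75048830 on the minus strand, has a near copy, *Ly6c2*, on the same chromosome from 75108158 to 75111970. Bases 1 to 120 of the coding sequences of their first GENCODE M21 transcripts, which hold 6 of the differing bases, are shown because short reads from one can be assigned to the other. Capitals mark the bases that differ.
Ly6c1: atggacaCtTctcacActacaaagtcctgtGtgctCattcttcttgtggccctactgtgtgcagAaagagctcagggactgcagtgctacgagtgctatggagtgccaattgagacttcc
Ly6c2: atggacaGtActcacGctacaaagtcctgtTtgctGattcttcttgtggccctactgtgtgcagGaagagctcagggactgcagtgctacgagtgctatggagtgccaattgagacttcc
Of 396 coding bases in all, 9 differed (97.7% identical), and 162 of the 347 windows of 50 bases held no difference. Of the 50-base windows in their protein-coding transcripts, 32.8% for *Ly6c1* and 19.0% for *Ly6a* occurred in transcripts of another gene on either strand, and *Ly6a* shared 195 windows with *Ly6c1* itself. Reads from shared windows can be split between genes, so the levels of *Ly6a* and *Ly6c1* are uncertain, by an amount that was not measured. The other 7 markers shared at most 4.4% of their windows. Exons of *Pi16*, *Dpp4* and *Cd34* overlap those of an antisense gene, and no source used here states a count by strand.

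A pair of promoters is shown for the markers whose order between the lineages was opposite. They are RefSeq windows on GRCm38.p6 from 250 bases before to 50 bases after a transcription start, chr10:22820094-22820393 on the minus strand for *Tcf21* and chr17:29318632-29318931 on the plus strand for *Pi16*. The *Pi16* window lies inside the GENCODE gene span, which starts at 29317680. Capitals mark matches on either strand. The motifs searched were the E-box, a motif of GATA factors, the TATA box and the AP-1 site, each spelled out where its matches are given, and no matches overlapped in these windows.
Tcf21: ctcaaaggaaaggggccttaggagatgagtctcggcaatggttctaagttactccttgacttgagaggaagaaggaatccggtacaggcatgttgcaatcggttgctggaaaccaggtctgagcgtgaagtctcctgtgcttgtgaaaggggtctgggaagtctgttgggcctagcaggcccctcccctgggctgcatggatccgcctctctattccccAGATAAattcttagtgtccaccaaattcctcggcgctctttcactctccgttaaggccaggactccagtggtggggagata
Pi16: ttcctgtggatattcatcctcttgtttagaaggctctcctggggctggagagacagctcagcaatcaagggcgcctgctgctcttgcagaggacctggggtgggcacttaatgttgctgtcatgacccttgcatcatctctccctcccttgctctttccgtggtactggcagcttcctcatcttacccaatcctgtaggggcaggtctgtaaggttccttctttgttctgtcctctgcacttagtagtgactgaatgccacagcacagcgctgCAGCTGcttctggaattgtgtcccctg
The *Tcf21* window held the GATA factor motif AGATAA 1 time, as do 11.2% of the 32851 promoters of the same length. It held no E-box, spelled CANNTG, which 72.3% of promoters hold, while the *Pi16* window held 1. Neither window held the core promoter motif TATAAA, which 13.6% of promoters hold. The AP-1 letters were also in neither window, and 7.81% of promoters hold them in the form TGANTCA. RefSeq windows were found for 6 of the 9 markers, and among these the E-box letters occurred 7 times in that of *Dpt*, 4 and 2 times in the windows of *Ly6c1*, 1 time in that of *Dpp4* and not in that of *Cd34*. A match is a description of the letters and not a binding site.

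The *Tcf21* gene spans 22817281 to 22820174 on chromosome 10. In replicate order its SHF levels were 294.64, 237.95 and 530.64 TPM, against 57.62, 105.68 and 47.98 TPM for CNC. The lowest SHF library was above the highest CNC library, so that the lineages did not overlap. The mean was 354 ± 155 TPM (SD, n = 3) in SHF and 70.4 ± 30.9 TPM (SD, n = 3) in CNC, a ratio of means of 5.03. On the log2(TPM + 1) scale the SHF minus CNC difference was 2.31 with an SE of 0.46 and a 95% interval from 1.31 to 3.31. By limma's p it ranked 7 of 10185 genes tested, but its adjusted p was 0.475 by limma with Benjamini-Hochberg adjustment. The difference stayed between 1.98 and 2.64 when each library was left out in turn, and was 2.13 in the 4 libraries listed at 0 for *Xist*.

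*Pi16*, which encodes a peptidase inhibitor and lies on chromosome 17 from 29317680 to 29330593, showed the opposite order. Its levels in replicate order were 801.71, 338.64 and 916.7 TPM for SHF, against 1931.51, 1455.92 and 1168.05 TPM for CNC. All 3 CNC libraries were above all 3 SHF libraries, and SHF replicate 2 was the lowest of the 6. The mean was 686 ± 306 TPM (SD, n = 3) in SHF and 1518 ± 386 TPM (SD, n = 3) in CNC, and the log2 difference was -1.24 with an SE of 0.38 (adjusted p = 0.625 by limma). Without SHF replicate 2 the difference was -0.79, the nearest to 0 of the 6 values that each left out a library. SHF replicate 2 also had the fewest genes above 0 TPM (9255), and the part of this in the result was not tested.

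*Clec3b* encodes tetranectin, a secreted plasminogen-binding lectin, and lies on chromosome 9 from 123150946 to 123157432. Its levels were 132.79, 72.29 and 251.91 TPM in SHF and 347.14, 503.78 and 302.27 TPM in CNC. SHF replicate 2 was again lowest, and the highest SHF library was close below the lowest CNC library. The log2 difference was -1.48 with an SE of 0.46 (adjusted p = 0.629 by limma). Of all 36 pairs of markers, *Pi16* and *Clec3b* had the third most similar profiles over the 6 libraries, with a root mean square difference of 0.36 in log2(TPM + 1) after each gene was centred on its mean.

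The Ly6 antigens are small proteins held in the membrane by a lipid anchor. *Ly6a* spans 74994877 to 74998031 on chromosome 15. It had the highest mean of the 9 markers over all 6 libraries and in CNC, while *Cd34* had the highest mean in SHF. *Ly6a* was at 1058.72, 688.17 and 872.64 TPM in SHF and at 1742.12, 2442.97 and 1797.36 TPM in CNC. *Ly6c1* was at 476.49, 316.21 and 332.14 TPM in SHF and at 643.19, 1488.39 and 928.05 TPM in CNC. Neither overlapped between lineages, and CNC replicate 2 was the highest library for both. The log2 difference was -1.2 with an SE of 0.26 for *Ly6a* (adjusted p = 0.475 by limma) and -1.38 with an SE of 0.34 for *Ly6c1* (adjusted p = 0.48 by limma). Their profiles were the most alike of all pairs of markers, with a root mean square difference of 0.25, and these are the markers that share sequence windows with each other.

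The near copy of *Ly6c1* and another gene of the family were read in the same libraries. *Ly6c2* was at 0.75, 0 and 0 TPM in SHF and at 11.91, 40.57 and 32.94 TPM in CNC, at most 3.55% of *Ly6c1* in any library. With *Ly6c1* and *Ly6c2* summed into 1 level the log2 difference was -1.42. *Ly6e*, which lies on chromosome 15 from 74955051 to 74959905 and shared no window with another gene, was at 195.12, 114 and 244.33 TPM in SHF and at 299.24, 330.96 and 273.21 TPM in CNC. Its libraries did not overlap either, with a log2 difference of -0.77 and an SE of 0.37 (adjusted p = 0.87 by limma), or -0.46 without SHF replicate 2. Of the 10 Ly6 family genes listed, 9 were rows of the matrix and 6 were tested, with a median log2 difference of -0.98 against 0.02 over all genes tested. *Ly6a* and *Ly6c1* themselves, *Ly6c2* and *Ly6e* were higher in every CNC library, as were 5.68% of all genes tested. In the other direction, 1 gene was higher in every SHF library, as were 6.11%. This was *Ly6k*, named after its values were seen, at 76.56, 39.81 and 40.88 TPM in SHF and at 0, 14.01 and 0 TPM in CNC. Its log2 difference was 4.37.

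*Cd34* and *Dpt* had the smallest log2 differences of the 9 markers. *Cd34*, a sialomucin of progenitor, endothelial and stromal cells on chromosome 1 from 194938819 to 194961279, had the smallest ratio of highest to lowest level of the 9 markers (1.36). It was at 965.5, 948.59 and 1231.57 TPM in SHF and at 1277.28, 1184.33 and 1294.17 TPM in CNC. SHF replicate 3 lay within the CNC range. The log2 difference was -0.26 with a 95% interval from -0.78 to 0.25. *Dpt* encodes dermatopontin, a matrix protein that binds decorin, and lies on chromosome 1 from 164796644 to 164824266. It was at 370, 537.41 and 752.1 TPM in SHF and at 475.44, 512.7 and 660.79 TPM in CNC, so that the CNC libraries lay inside the SHF range. Its log2 difference was -0.04 with a 95% interval from -0.74 to 0.67, and its sign depended on the scaling and on single libraries.

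*Dpp4* and *Thy1* were the least abundant markers. *Dpp4*, a membrane serine protease also called CD26 spanning 62330073 to 62412231 on chromosome 2, was at 5.21, 25.71 and 21.93 TPM in SHF and at 63.69, 45.3 and 16.17 TPM in CNC. CNC replicate 3 was below SHF replicates 2 and 3. *Thy1*, a lipid-anchored surface protein also called CD90 spanning 44043384 to 44048579 on chromosome 9, was at 12.78, 5.7 and 4.42 TPM in SHF and at 29.8, 12.67 and 27.57 TPM in CNC, where CNC replicate 2 was just below SHF replicate 1. The log2 differences were -1.25 with an interval from -3.29 to 0.78 for *Dpp4* and -1.53 with an interval from -3.86 to 0.8 for *Thy1*, so that both intervals span 0. With a library left out, the difference of *Dpp4* ran from -1.81 to -0.59 (without SHF replicate 1), and it was -1.71 under quantile normalization and -2.58 in the 4 libraries listed at 0 for *Xist*.

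**Figure D1:**
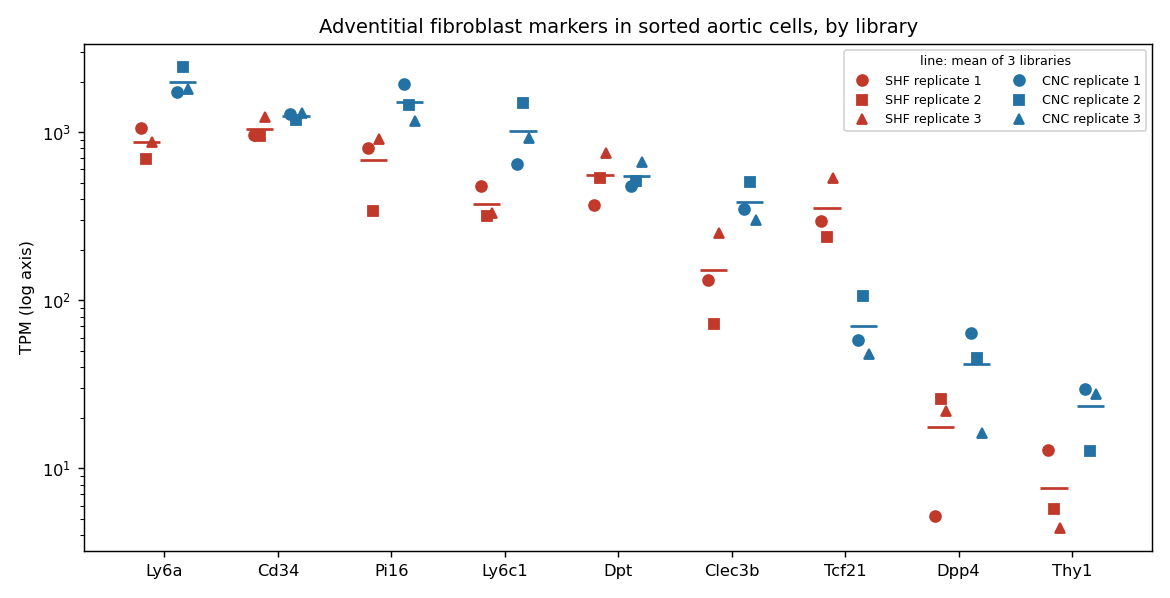
TPM of the 9 markers (log axis) in each of the 3 SHF and 3 CNC libraries, with a line at each lineage's mean. Points of *Tcf21* are higher in SHF, those of *Ly6a*, *Pi16*, *Ly6c1* and *Clec3b* are higher in CNC, and *Cd34* runs only from 948.59 to 1294.17 TPM.

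Over the 9 markers, 1 was higher in every SHF library and 4 were higher in every CNC library. Of all 10185 genes tested, 11.8% had libraries that did not overlap between lineages, 6.11% higher in SHF and 5.68% higher in CNC. At an adjusted p under 0.05 by limma, 0 of 9 markers and 0.0% of all genes passed, while at an unadjusted p under 0.05 the counts were 5 markers and 5.86% of all genes (597 genes). By direction these were 1 marker against 2.69% of all genes higher in SHF, and 4 markers against 3.17% of all genes higher in CNC. The 5 markers are those that did not overlap. For each of them the exact two-sided permutation test gave p = 0.1, the smallest that 3 libraries against 3 allow. The median log2 difference was -1.24 over the 9 markers and 0.02 over all genes tested. Members of the list were chosen with earlier results of these data known, so these counts describe the markers and give no test of the list.

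**Figure D2:**
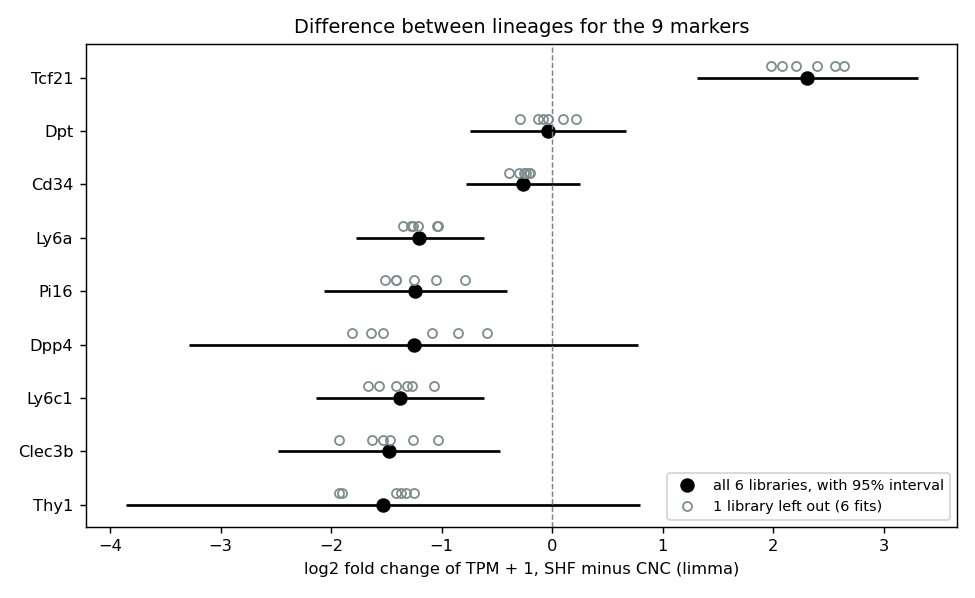
Log2 fold change of TPM + 1, SHF minus CNC, for each marker by limma, with its 95% interval (line) and the 6 values that each left out a library (open circles). *Tcf21* lies at 2.31 with its interval above 0, and *Ly6a*, *Pi16*, *Ly6c1* and *Clec3b* lie between -1.48 and -1.2 with intervals below 0.

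The order of the markers by mean level differed between lineages. In SHF it ran *Cd34*, *Ly6a*, *Pi16*, *Dpt*, *Ly6c1*, *Tcf21*, *Clec3b*, *Dpp4* and *Thy1*. In CNC it ran *Ly6a*, *Pi16*, *Cd34*, *Ly6c1*, *Dpt*, *Clec3b*, *Tcf21*, *Dpp4* and *Thy1*. Over all 6 libraries, of the 8 neighbouring pairs in the order of the means only *Dpt* was above its neighbour *Clec3b* in all 6 libraries, and *Clec3b* was above *Tcf21* in 3 of 6. By mean level *Ly6a*, *Cd34* and *Pi16* ranked 99, 132 and 136 among all rows, and *Dpp4* and *Thy1* ranked 4072 and 6118.

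A ratio within a library does not depend on the library total. *Tcf21* was at 36.8%, 70.3% and 57.9% of *Pi16* in SHF replicates 1, 2 and 3 and at 2.98%, 7.26% and 4.11% of *Pi16* in CNC replicates 1, 2 and 3. The lineages did not overlap, and on the log2 scale the ratio was -0.91 ± 0.48 (SD, n = 3) in SHF and -4.49 ± 0.65 (SD, n = 3) in CNC. This ratio was chosen after the values were seen and gets no test.

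The markers were also set against 6 fibroblast reference genes in the same library, *Pdgfra*, *Lum*, *Dcn*, *Col1a1*, *Col1a2* and *Col3a1*. The summed level of the reference was itself higher in CNC, from 36510 to 51050 TPM against 27460 to 29480 TPM in SHF. Per 1000 TPM of this reference, *Tcf21* was at 10.1, 8.67 and 18.0 in SHF and at 1.2, 2.9 and 0.94 in CNC, with no overlap. *Cd34* was at 33.1, 34.5 and 41.8 in SHF and at 26.5, 32.4 and 25.4 in CNC, so that it did not overlap on this scale and was higher in SHF. *Pi16*, *Ly6a*, *Ly6c1* and *Clec3b* then overlapped between lineages. As a percentage of the reference, the sum of the 9 markers was 14.1%, 11.6% and 16.7% in SHF and 13.6%, 21.2% and 12.2% in CNC.

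For *Cd34* and the markers higher in CNC, whether the lineages overlapped depended on the reference. Of the 6 reference genes, the 3 collagens were higher in every CNC library, as were 5.68% of all genes tested, and the other 3 overlapped. *Col1a1*, named after its values were seen, was at 4004.56 to 4541.34 TPM in SHF and at 7322.3 to 12778.1 TPM in CNC. *Dcn*, which encodes the proteoglycan decorin, ran from 11604.17 to 14862.93 TPM over all 6 libraries. Per 1000 TPM of *Dcn* alone, a reference added after the values were seen, *Pi16*, *Ly6a*, *Ly6c1* and *Clec3b* did not overlap and were higher in CNC. Against the sum of *Pdgfra* and *Lum*, *Ly6a*, *Ly6c1* and *Thy1* were higher in every CNC library, while *Pi16* and *Clec3b* overlapped. *Cd34* overlapped against both. Per 1000 TPM of *Dcn* it ran from 74.4 to 98.7 in SHF and from 79.7 to 106 in CNC, with the higher mean in CNC. Per 1000 TPM of *Pdgfra* and *Lum* its mean was higher in SHF, at 462.9 against 448.5 in CNC. *Tcf21* was higher in every SHF library against each of the 3 references.

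**Figure D3:**
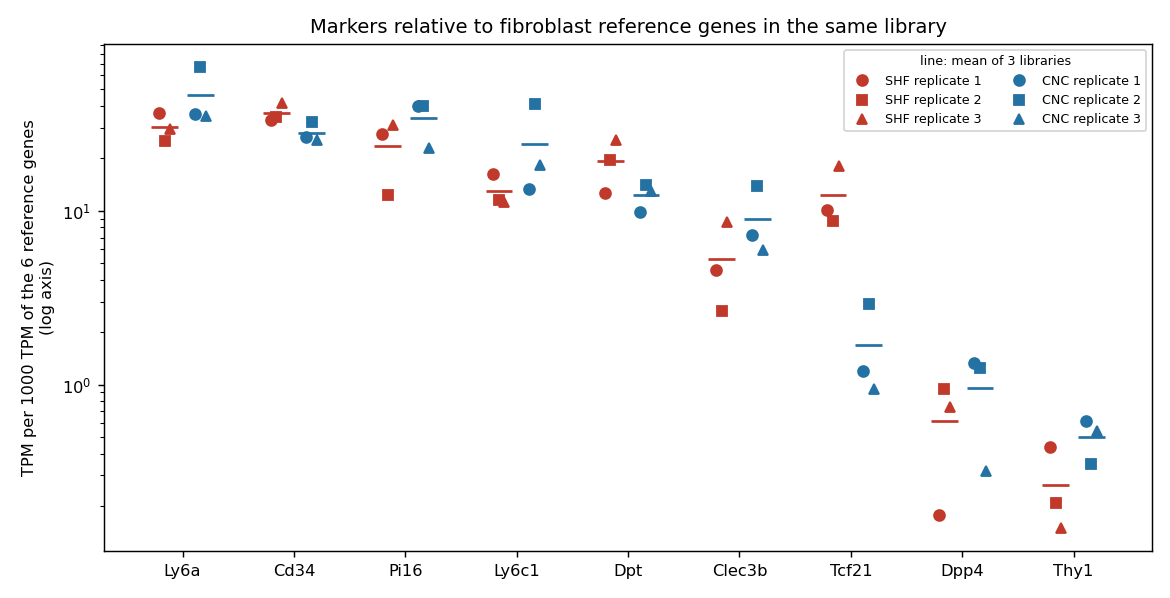
Level of each marker per 1000 TPM of the 6 fibroblast reference genes (log axis) in each library, with a line at each lineage's mean. *Tcf21* spans 8.67 to 18.0 in SHF and 0.94 to 2.9 in CNC, while *Pi16*, *Ly6a*, *Ly6c1* and *Clec3b* overlap between lineages on this scale.

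Of 20 other adventitial fibroblast genes, all 20 were tested and 19 were above 0 in all 6 libraries. *Pdgfra*, *Lum* and *Dcn* are in this list as well as among the 6 reference genes. None passed at an adjusted p under 0.05 by limma, 6 were higher in every CNC library (5.68% of all genes tested) and 0 in every SHF library (6.11%). At an unadjusted p under 0.05, 6 were higher in CNC (3.17% of all genes tested) and 0 in SHF (2.69%), and the median log2 difference was -0.5 against 0.02 over all genes tested. Among their 6 most abundant genes, *Scara5*, a ferritin receptor, was at 141.97, 261.91 and 460.6 TPM in SHF and at 821.21, 1470.61 and 696.33 TPM in CNC, with a log2 difference of -1.87 and an SE of 0.44 (adjusted p = 0.475 by limma). *Mfap5*, a microfibril component, and *Serpinf1*, a secreted serpin, also did not overlap and were higher in CNC, with log2 differences of -0.64 and -0.56. In the 4 libraries listed at 0 for *Xist* the differences were -0.18 for *Mfap5*, -0.54 for *Serpinf1* and -2.72 for *Scara5*. *Dcn*, *Lum* and *Cygb*, a cytoglobin gene, overlapped, with differences of -0.13, -0.3 and 0.39. These small values moved with single libraries, to -0.05 for *Dcn* without CNC replicate 2, to -0.07 for *Lum* without CNC replicate 3 and to 0.21 for *Cygb* without SHF replicate 3, and *Cygb* was at 0.06 in the libraries listed at 0 for *Xist*.

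Markers of other cell types were read beside these values. The 12 smooth muscle genes summed to 1379 to 3145 TPM, overlapping between lineages, and the 9 markers together were 1.31, 2.12 and 2.6 times that sum in SHF and 4.76, 3.74 and 3.82 times in CNC. *Acta2*, the smooth muscle actin, ran from 363.06 to 956.16 TPM and *Myh11*, the smooth muscle myosin, from 17.43 to 125 TPM. *Tagln*, also of this list, was at 672.56, 403.11 and 224.24 TPM in SHF and at 139.05, 228.04 and 188.49 TPM in CNC. It overlapped, with a log2 difference of 1.11 and a 95% interval from 0.18 to 2.04 (adjusted p = 0.771 by limma). Of the 12 differences, 8 were above 0 and 4 below. The 12 endothelial genes summed to 318.3, 689.7 and 611.8 TPM in SHF and to 259 to 337.7 TPM in CNC. Of these, *Cdh5*, *Tie1*, *Cldn5* and *Vwf* were listed at 0 in all CNC libraries, and each other gene was above 0 in some CNC library. In that order they were at 5.94, 0.3, 0 and 0.04 TPM in SHF replicate 1. Their levels were 17.17, 22.34, 126.15 and 5.34 TPM in SHF replicate 2 and 24.64, 23.06, 70.87 and 5.34 TPM in SHF replicate 3. *Eng*, a co-receptor of the TGF-beta family and the most abundant gene of the list, was at 218.98, 276.9 and 112.89 TPM in SHF and at 275.15, 180.5 and 225.16 TPM in CNC, with a log2 difference of -0.23. *Pecam1*, an endothelial adhesion molecule, was at 31.45, 147.51 and 141.59 TPM in SHF and at 9.72, 37.86 and 19.81 TPM in CNC. Both genes overlapped between lineages, and *Eng* made up the larger share of the sum in CNC.

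The 6 pericyte genes summed to 198.7 to 510.6 TPM and overlapped. The 12 leukocyte genes summed to 0 to 165.3 TPM with *Ptprc*, *Adgre1*, *Itgam*, *Cd3e* and *Cd3g* listed at 0 in all 6 libraries. CNC replicate 2, the highest library for *Ly6a*, *Ly6c1* and *Clec3b*, also had the highest leukocyte sum. The 6 Schwann cell genes summed to 1.5 to 15.32 TPM in SHF and to 21.43 to 66.05 TPM in CNC. The 6 cardiomyocyte genes summed to 87.44 to 115.9 TPM in SHF and to 0 to 37.67 TPM in CNC. Of 8 mesothelial genes, 7 were rows of the matrix, and they summed to 88.3 TPM in SHF replicate 3, which was the highest library for *Tcf21*, and to 0 to 26.45 TPM in the others. None of the tested genes of these lists passed at an adjusted p under 0.05 by limma, and no mesothelial gene met the filter for testing. The median log2 difference was 0.18 over 12 smooth muscle genes tested, 1.5 over 9 endothelial, -0.66 over 5 pericyte, -1.54 over 4 leukocyte and -1.96 over 2 Schwann cell genes, and the 1 cardiomyocyte gene tested was at 4.13. The part of these cells in the differences of the 9 markers was not tested.

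**Figure D4:**
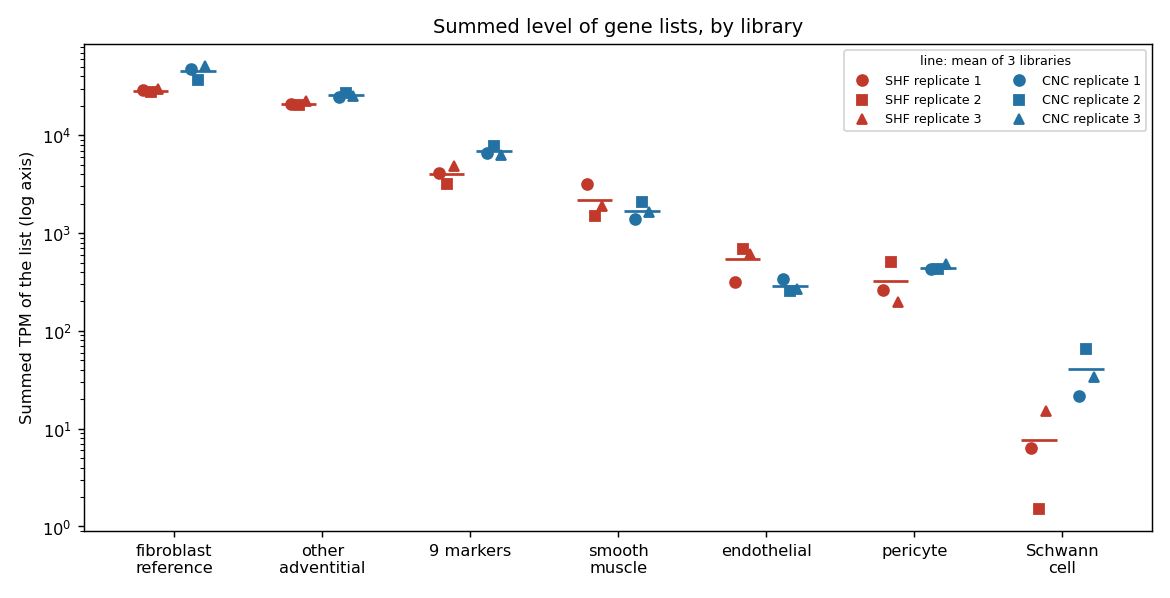
Summed TPM (log axis) of gene lists in each library, with a line at each lineage's mean. The sum of the 9 markers runs from 3171 to 4914 TPM in SHF and from 6242 to 7752 TPM in CNC, above the smooth muscle sum in every library.

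The genes with the most similar profiles were taken from 5406 genes above 0 TPM in all 6 libraries with a mean of at least 10 TPM. They were *Manba* and *Usp8* for *Pi16*, with root mean square differences of 0.13 and 0.15, *Psmb1* and *Minos1* for *Ly6a* (0.1 and 0.14), *Ly6a* and *Psmb1* for *Ly6c1* (0.25 and 0.26), and *Rae1* and *Oxct1* for *Clec3b* (0.2 and 0.24). For *Tcf21* they were *Usp2* and *Tmem176b* (0.42 for both), the least close of any marker, against a median of 1.43 over all genes. For *Cd34* they were *Rplp1* and *H2-T23* (0.12 and 0.13), for *Dpt* *Rpl29* and *Park7* (0.09 and 0.14), for *Dpp4* *Gcsh* and *Efemp1* (0.34 and 0.36) and for *Thy1* *Ppip5k2* and *Sec16b* (0.17 and 0.23). With 6 libraries and 5406 genes such closeness is a description only.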

How the data were processed

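The 6 libraries, 3 SHF and 3 CNC, were grouped by title and matched to columns by library code. RNA was normalized to sorted cell number and amplified by the SmartSeq2 protocol. The authors aligned reads with bowtie2 in RSEM 1.2.25 on mm10 and deposited TPM. The gene annotation is not given in the sources used here. The protocol has no molecular identifiers.

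Genes were kept when 3 or more libraries reached 1 TPM, which left 10185. Deposited TPM were put on the log2(TPM + 1) scale, on which differences of low genes come out too small. Lineages were compared (SHF minus CNC) by limma 3.58.1 under R 4.3.3 using trended eBayes, and p-values were adjusted by Benjamini-Hochberg and called under 0.05. The fit was tested on simulated data. Single genes were also compared by exact two-sided permutation tests. The rule for named genes took the 9 markers, the 3 genes of highest mean TPM in each list (6 for other adventitial fibroblast genes), *Ly6c2*, *Ly6e*, *Acta2*, *Myh11*, *Pecam1*, *Ptprc*, *Pdgfra*, *Lum*, *Dcn* and, for each marker, the 2 genes with the most similar profile. Only some of the genes that this rule allows are described. Markers at 0 are named beside their list. Lists covered other adventitial fibroblast, smooth muscle, endothelial, leukocyte, mesothelial, pericyte, Schwann cell, cardiomyocyte and Ly6 family genes. Members and lists were chosen with earlier results of these data known. *Muc16* and *Ly6g* matched no row. Gene positions and transcripts came from GENCODE M21 (GRCm38, equivalent to mm10) and promoters from RefSeq. Alternatives were other pseudocounts, filters, scalings, variance models, references, a replicate block and each library left out. Plots were made with matplotlib 3.10.9 in Python 3.11.15. Other data of the study were not analysed here.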

Additional observations from a re-analysis of the deposited data

How the results depend on the processing

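The number of markers past the threshold was 0 under every alternative run. None was exclusive to a lineage under thresholds of 1 or 10 TPM, with the other lineage under 1 TPM, or with any library left out. That outcome was fixed in advance, because the lowest level of any marker was 4.42 TPM (*Thy1* in SHF replicate 3). Of 145 alternative values of the markers' log2 differences, 142 kept their direction. Other filters, eBayes without a trend and the replicate block cannot change these differences, so part of the 142 was fixed in advance. The lowest adjusted p by limma was 0.222, for *Tcf21* with a pseudocount of 5. The 3 sign changes were those of *Dpt*, 0.02 under quantile normalization and from -0.29 to 0.22 with a library left out, positive when SHF replicate 1 (0.22) or CNC replicate 3 (0.1) was dropped. Over all genes, 1 gene passed with a pseudocount of 5 (*Gm13305*) and 1 in the libraries listed at 0 for *Xist* (*Rps27rt*). The latter setting was chosen after seeing the data and holds a single SHF library, assumed to vary like the CNC libraries, and *Rps27rt* was at 90.41 TPM in it and at 2176.73 and 443.3 TPM in the SHF libraries left out. The other sign changes were those of *Dcn* under quantile normalization (0.04), *Myh11* with library weights (0.06) and in the libraries listed at 0 for *Xist* (0.58), and, with a library left out, *Myh11* (-0.85 to 0.53) and *Acta2* (-0.14 to 0.55). The difference in the markers' mean log2 sum relative to the 6 reference genes was -0.13, 0.01 without *Ly6a*, 0.04 without *Cd34*, *Ly6a* and *Ly6c1*, -0.46 with *Pdgfra* and *Lum* as the reference, and -0.64 with *Dcn* as the reference, added after seeing the data. With a library left out it ran from -0.29 to 0.11, turning positive when SHF replicate 2 (0.01) or CNC replicate 2 (0.11) was dropped. For all these sign changes the cause was not tested. Replicate numbers are shared between lineages, but the correlations of the deviations of same-numbered libraries were -0.011, -0.004 and -0.011, which gives no sign of pairing. Adding the replicate block left 0 genes and 0 markers past the threshold.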
